A study of Mus musculus with 3 samples.

Results

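T cells of the sciatic nerve in which single-cell receptor sequencing recovered 1 productive T cell receptor beta chain (TRB) and no productive alpha chain (TRA) numbered 1365 of 6634 cells with a productive chain. They were chosen from the deposited contigs, the receptor transcripts assembled for each cell barcode, by counting productive TRA and TRB contigs with a CDR3, the stretch across the V-J junction that contacts the peptide. Their shares were 385 of 2374, 736 of 3555 and 244 of 705 cells in replicates 1, 2 and 3, a mean of 23.8% ± 9.59 (SD, n = 3 libraries). The reference class was the 4187 paired cells, which held exactly 1 TRA and 1 TRB (1602, 2216 and 369 cells). All 3 libraries were CD45+ immune cells sorted from the sciatic nerve of neuropathic NOD.AireGW/+ mice. This strain carries 1 copy of a partial loss-of-function allele of Aire, the regulator that displays tissue antigens in the thymus, and it develops spontaneous autoimmune neuropathy. Replicates 1 and 2 came from 1 mouse each, and replicate 3 pooled 2 mice. No healthy or treated group was analysed here, so every comparison is between kinds of cell within a library.

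The beta chain is rearranged early in thymic development, and the alpha chain later, from a locus on chromosome 14 that also holds the delta chain genes between the TRAV and TRAJ segments. Alpha rearrangement can proceed on both chromosomes, so a T cell can carry a second alpha rearrangement that is out of frame. A mature alpha-beta T cell needs a working alpha chain to place its receptor on the surface. Alpha-locus contigs that were not called productive are therefore described here beside the beta chains.

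The filtered tables held 34630, 41338 and 5142 receptor UMIs (unique molecular identifiers, each marking 1 captured transcript) in replicates 1, 2 and 3. The same barcode occurred as a cell in more than 1 library 10 times, 0 times with no TRA in both libraries and 0 times with the same TRB. No contig named a gamma chain, immunoglobulin or delta J or constant segment, so the T cell label rests on TRB and TRA contigs alone. The libraries are labelled TCR-seq, and this does not show that cells with those other chains were absent. Gene expression was not joined here, so CD4 and CD8 cells were not separated. Intervals are exact Clopper-Pearson 95% intervals and cover counting error only.

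The junctions below are printed because their contig was found almost wholly outside paired cells. This contig joined TRDV1, a delta variable gene, to TRAJ58, an alpha joining gene, and occurred in 58 of the 1365 cells without a TRA and in 3 of the 4187 paired cells. All 58 contigs were flagged full length and not productive, and 57 carried a CDR3. All 57 began with the same TRDV1 codons and ended with the same TRAJ58 codons as read into amino acids, with 0 stop codons. The germline ends in the GRCm38 (mm10) build, both on the + strand of chromosome 14, are the 3′ end of the TRDV1 exon (chr14:53882158-53882217) and TRAJ58 (chr14:54157280-54157342). Capitals in the germline lines mark the bases that enter the CDR3. Capitals in the other lines mark junction bases that matched neither germline end. The junctions are named by library and TRB and are those found in 2 or more cells without a TRA.
TRDV1 germline end: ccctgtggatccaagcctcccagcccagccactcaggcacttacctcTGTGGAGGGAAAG
TRAJ58 germline: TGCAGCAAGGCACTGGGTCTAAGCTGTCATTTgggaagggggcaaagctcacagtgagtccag
Replicate 1, TRBV3/TRBJ2-3: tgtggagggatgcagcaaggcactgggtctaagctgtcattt
Replicate 1, TRBV1/TRBJ2-7: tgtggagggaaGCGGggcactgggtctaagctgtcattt
Replicate 1, TRBV5/TRBJ1-1: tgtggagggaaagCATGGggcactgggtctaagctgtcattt
Replicate 2, TRBV16/TRBJ2-3: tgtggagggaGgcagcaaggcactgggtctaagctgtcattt
Replicate 2, TRBV16/TRBJ2-4: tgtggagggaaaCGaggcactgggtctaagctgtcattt
Replicate 2, TRBV26/TRBJ2-3: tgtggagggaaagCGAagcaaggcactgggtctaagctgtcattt
Replicate 2, TRBV1/TRBJ1-1: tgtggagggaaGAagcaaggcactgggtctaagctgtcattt
Replicate 2, TRBV16/TRBJ2-7: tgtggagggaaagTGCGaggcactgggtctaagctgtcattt
Replicate 3, TRBV1/TRBJ2-1: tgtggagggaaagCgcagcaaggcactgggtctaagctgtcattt
Replicate 3, TRBV23/TRBJ1-1: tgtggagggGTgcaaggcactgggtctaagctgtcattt

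The TRDV1-TRAJ58 contig occurred in 22 of 385 cells without a TRA in replicate 1 (5.71%, interval 3.62 to 8.52). Replicate 2 had 19 of 736 (2.58%, 1.56 to 4.00), and replicate 3 had 17 of 244 (6.97%, 4.11 to 10.9). In paired cells it occurred in 1 of 1602, 2 of 2216 and 0 of 369 cells, the last of which allows a share of up to 0.995%. The difference was positive in 3 of 3 libraries and averaged 5.04 percentage points ± 2.30 (SD, n = 3), and an exact two-sided sign-flip permutation test over libraries gave p = 0.25, the smallest value that 3 libraries allow. Such p-values measure only the spread between these libraries. This class difference is partly set by definition, because the contig was never counted as productive and a paired cell already holds another alpha chain. The contigs were not faint: their median UMI counts were 7, 6 and 4, against a median of 5, 3 and 3 for the productive TRA of paired cells.

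The TRDV1-TRAJ58 junctions were diverse. The 57 cells held 31 TRB rearrangements (V gene, nucleotide CDR3 and J gene), of which 3 also occurred in a paired cell of the library. That overlap is partly set by definition, because the contig was never counted as productive. Of 10 TRBs with the contig in 2 or more cells, 8 carried the same alpha junction in every cell without a TRA. The TRBV3 clone of replicate 1 carried the junction printed for it in 9 of 9 cells, and the TRBV1 clone in 5 of 5. In replicate 2 the TRBV16/TRBJ2-3 and TRBV16/TRBJ2-4 clones carried their junctions in 5 of 5 and 4 of 4 cells. The TRBV16/TRBJ2-7 clone (2 of 3 cells) and the TRBV23 clone of replicate 3 (2 of 3 cells) were the exceptions. The contig was in 1 cell of each of the other 21 TRBs, which in the TRBV31 clone of replicate 1 and the TRBV14 clone of replicate 3 was 1 of 2 cells. In replicate 1 the same nucleotide junction occurred with a TRBV2 and a TRBV23 TRB.

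Across libraries, the 57 cells held 27 distinct nucleotide and 23 distinct amino acid CDR3s. Of the amino acid CDR3s, 2 occurred in all 3 libraries, one encoded by 4 nucleotide sequences and the other by 2, each with 4 TRBs, while 0 nucleotide CDR3s occurred in all 3. The CDR3s had 12 to 16 amino acids. Between the stretches that matched TRDV1 and TRAJ58, the 30 junctions (distinct nucleotide CDR3s within a library) held a median of 3 unmatched bases (range 0 to 8), and 5 held none. TRBV1, a beta variable gene at the 5′ end of the locus, was used by 8 of 15 TRBs with this contig against 24 of 316 paired TRBs in replicate 3. Replicate 2 had 2 of 7 against 102 of 1312, and replicate 1 had 1 of 9 against 56 of 908. TRBV12-1 was used by 1 of 9, 1 of 7 and 2 of 15 such TRBs in replicates 1, 2 and 3. The paired counts were 12 of 908, 12 of 1312 and 8 of 316. TRBV16 had 0 of 9, 3 of 7 and 0 of 15, against 74 of 908, 82 of 1312 and 26 of 316. TRBV23 had 1 of 9, 0 of 7 and 2 of 15, against 1 of 908, 1 of 1312 and 0 of 316. These TRBV genes were picked after their counts were seen, and the counts are small and carry no test.

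A second alpha contig set apart from the productive class was the one that used TRAJ35 (chr14:54183774-54183838, + strand, GRCm38). All 135 TRAJ35 contigs of cells were flagged not full length and 0 were productive, although 132 carried a CDR3 and 121 ended in the same TRAJ35 amino acids. Among the 42 TRAJ genes with at least 20 CDR3-bearing contigs in cells, TRAJ35 was alone at 0% productive. The next lowest was TRAJ44 at 70.4%, and the median was 92.6%. The germline segment and the alpha junctions of 3 clones without a TRA are printed to show that the CDR3 read through into TRAJ35. Capitals mark the CDR3 part of TRAJ35 in the germline line and the bases that matched it in the clones.
TRAJ35 germline: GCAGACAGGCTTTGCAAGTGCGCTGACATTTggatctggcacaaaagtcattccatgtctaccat
Replicate 1, TRBV13-1/TRBJ1-1 with TRAV6-6: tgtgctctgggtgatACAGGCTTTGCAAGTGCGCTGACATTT
Replicate 2, TRBV13-1/TRBJ2-1 with TRAV10N: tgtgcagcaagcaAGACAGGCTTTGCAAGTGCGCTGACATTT
Replicate 2, TRBV10/TRBJ2-7 with TRAV5D-4: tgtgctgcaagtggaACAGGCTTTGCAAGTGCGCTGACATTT

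TRAJ35 contigs lay on 22 of 385 cells without a TRA in replicate 1 (5.71%, interval 3.62 to 8.52). Replicate 2 had 44 of 736 (5.98%), and replicate 3 had 8 of 244 (3.28%). The corresponding counts in paired cells were 15 of 1602 (0.936%), 28 of 2216 (1.26%) and 4 of 369 (1.08%). The mean difference was 3.90 percentage points ± 1.47 (SD, n = 3, exact sign-flip permutation p = 0.25). It is partly set by the way cells were chosen, because a TRAJ35 contig was never called productive and a paired cell could show one only beside another alpha chain. Cells without a TRA were 74 of the 135 cells with a TRAJ35 contig. Of those 74, 10 had a TRB that also occurred in paired cells, against 559 of all 1365 cells without a TRA. This count is also partly set by definition, because a clone whose only alpha chain used TRAJ35 could hold no paired cell. The TRBV13-1/TRBJ2-1 clone of replicate 2 carried its TRAV10N-TRAJ35 junction in 4 of 4 cells, and the TRBV10/TRBJ2-7 clone carried its TRAV5D-4-TRAJ35 junction in 3 of 3. In replicate 1 the TRBV13-1/TRBJ1-1 clone carried TRAV6-6-TRAJ35 in 2 of 2 cells. The other 3 clones with a repeated TRAJ35 junction were in replicate 2. Of these, the TRBV13-2 clone carried it in 2 of 3 cells without a TRA, the TRBV12-2+TRBV13-2 clone in 3 of 3 beside 1 paired cell, and the TRBV19 clone in 2 of 2 beside 18 paired cells.

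**Figure D1:**
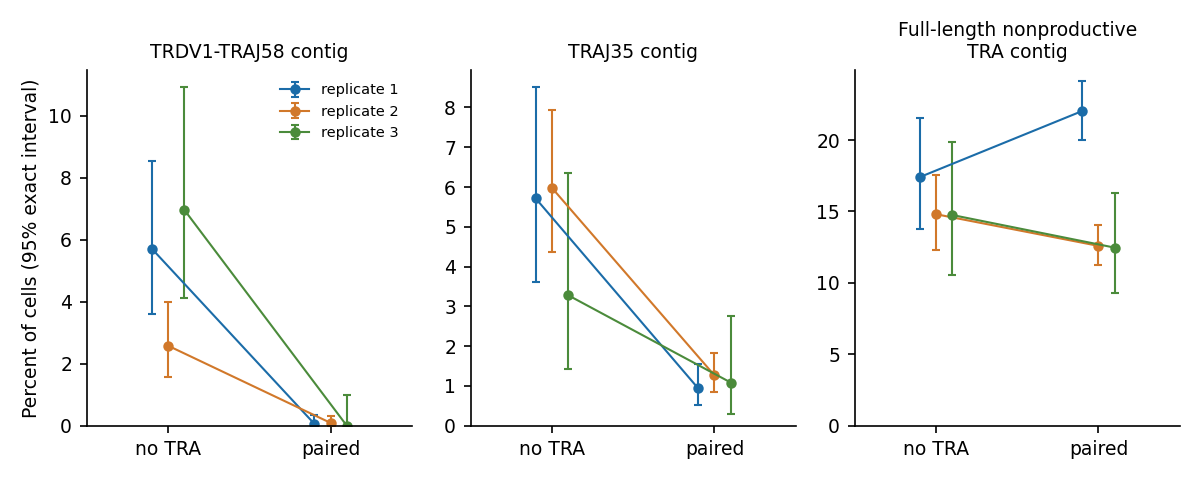
Percent of cells (vertical axes) with a TRDV1-TRAJ58 contig, a TRAJ35 contig or a full-length TRA contig flagged not productive, in cells without a TRA and in paired cells. The full-length measure takes contigs whose chain was called TRA and leaves out the TRDV1-TRAJ58 contigs. Points are libraries joined by replicate, and bars are exact 95% intervals. The shares of the TRDV1-TRAJ58 and TRAJ35 contigs were higher in the cells without a TRA in all 3 libraries, while full-length nonproductive contigs were lower in replicate 1 (67 of 385 against 353 of 1602 cells) and higher in replicates 2 and 3.

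Nonproductive contigs were next counted where the chain was called TRA, which leaves out the TRDV1-TRAJ58 contigs. Such a contig was present on 158 of 385 cells without a TRA in replicate 1 (41.0%). Replicate 2 had 216 of 736 (29.3%), and replicate 3 had 58 of 244 (23.8%). In paired cells the shares were 28.8%, 18.8% and 19.0%. The difference was positive in 3 of 3 libraries, with a mean of 9.18 percentage points ± 3.88 (SD, n = 3, exact sign-flip permutation p = 0.25). Contigs flagged not full length were on 29.6%, 16.3% and 10.2% of cells without a TRA and on 7.68%, 6.45% and 6.50% of paired cells. This difference is partly fixed by the choice of cells, since a cell whose own alpha chain was assembled short counts as lacking it, as in 48 cells of 1 clone of replicate 1 described below. Full-length nonproductive TRA contigs, again without the TRDV1-TRAJ58 contigs, were on 17.4%, 14.8% and 14.8% of cells without a TRA. In paired cells they were on 353 of 1602, 12.6% and 12.5%. The mean difference was -0.04 percentage points ± 3.98 (SD, n = 3, exact sign-flip permutation p = 1). A count that includes the TRDV1-TRAJ58 contigs, which were flagged full length, was not made.

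Each cell without a TRA was placed in the highest applicable of 7 kinds, from a TRAJ35 contig with a CDR3 down to no alpha-locus contig. A TRAJ35, TRDV-TRAJ or other not full-length TRA contig that carried a CDR3 was found on 126 of 385 cells in replicate 1 (32.7%). Replicate 2 had 102 of 736 (13.9%), and replicate 3 had 40 of 244 (16.4%). On paired cells, where such a contig came beside a productive TRA, the shares were 4.87%, 3.84% and 3.25%. With these cells left out of the count without a TRA, that class held 10.9%, 17.8% and 28.9% of all cells. No alpha-locus contig of any kind was found on 204 of 385, 485 of 736 and 162 of 244 cells.

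**Figure D2:**
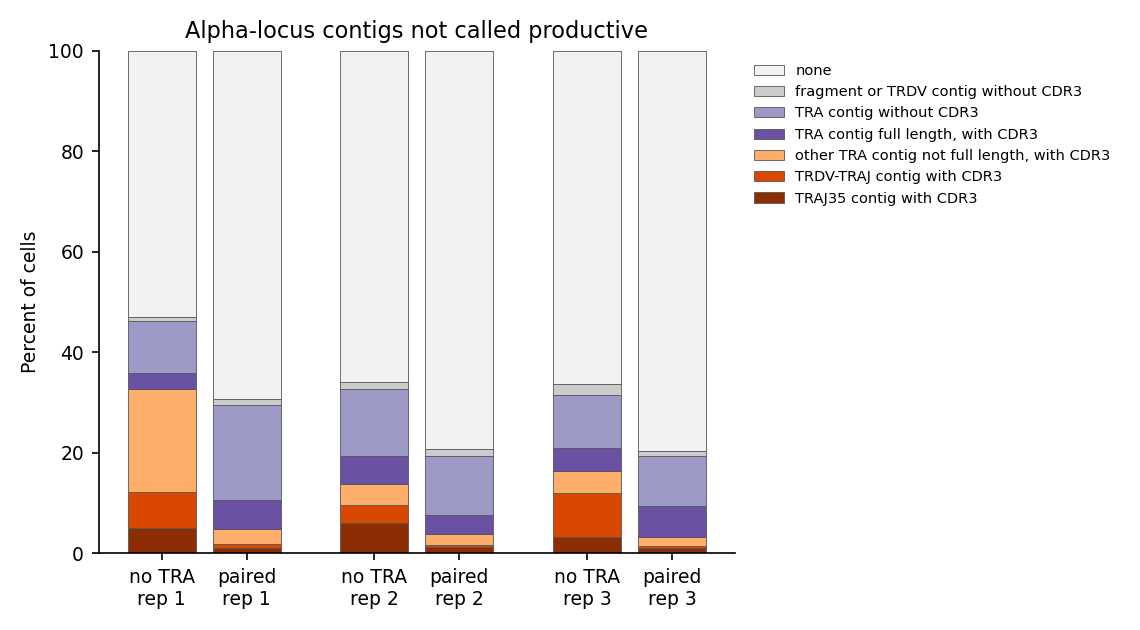
Percent of cells (vertical axis) by the kind of alpha-locus contig that was not called productive, for cells without a TRA and paired cells of each replicate (rep). Each cell is in 1 kind, the lowest-drawn that applies. In the cells without a TRA the 3 orange and brown kinds together made up 32.7%, 13.9% and 16.4%, against 4.87%, 3.84% and 3.25% in paired cells.

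Sharing of the TRB with paired cells is given for each of these kinds, with no test. For TRAJ35 and TRDV1-TRAJ58 contigs it is partly set by definition, because they were never called productive. Cells with a TRDV-TRAJ contig shared it in 3 of 28, 3 of 27 and 0 of 21 cases in replicates 1, 2 and 3, and cells with a TRAJ35 contig and CDR3 in 1 of 19, 6 of 44 and 0 of 8. Cells with another not full-length TRA contig that carried a CDR3 shared it in 59 of 79, 23 of 31 and 6 of 11 cases. Cells with no alpha-locus contig shared it in 124 of 204, 199 of 485 and 23 of 162 cases. The TRBV19 clone of replicate 1 described below, whose TRB is shared by definition of the clone, weighed on both counts of that library. A not full-length TRA contig with a CDR3 was on 48 of its 115 cells without a TRA, and 54 of the 115 had any alpha-locus contig. The TRB of cells with no alpha-locus contig had a median of 4, 5 and 4 UMIs, against 9, 12 and 8 for cells with a TRDV-TRAJ contig.

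A TRB rearrangement that also occurred in a paired cell of the same library was found in 218 of the 385 cells without a TRA of replicate 1 (56.6%, interval 51.5 to 61.6). Replicate 2 had 306 of 736 (41.6%, 38.0 to 45.2), and replicate 3 had 35 of 244 (14.3%, 10.2 to 19.4). As the same measure in the reference class, 54.7%, 52.8% and 23.6% of paired cells shared their TRB with another paired cell. The difference averaged -6.17 percentage points ± 7.10 (SD, n = 3, exact sign-flip permutation p = 0.5) and was below 0 in replicates 2 and 3. Without the largest clone of replicate 1 that library fell to 38.1%, against 46.3% of its paired cells. A TRB seen in a single cell without a TRA, and nowhere else among cells with 1 TRB, accounted for 136, 372 and 175 cells. A further 120 cells over the 3 libraries formed 44 clones of 2 or more cells in which no cell with 1 TRB had a TRA. Another 3 cells shared their TRB only with cells that held 2 TRAs.

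Clones are here all cells of a library with the same TRB rearrangement and 0 or 1 TRA, at least 2 cells in all and at least 1 of them paired. In such clones 218 cells lacked a TRA beside 905 paired cells in replicate 1 (19.4%), 306 beside 1235 in replicate 2 (19.9%) and 35 beside 101 in replicate 3 (25.7%), a mean of 21.7% ± 3.53 (SD, n = 3). No cell without a TRA was seen in 143 of 211, 188 of 331 and 23 of 48 clones. Since every clone had to hold a paired cell, the share is bounded below 100%, and taking 1 paired cell out of each clone gave a mean of 29.7%. The largest clone weighed on replicate 1, whose share was 13.6% without it. Over the 41 clones of 10 or more cells, the share without a TRA ran from 0% to 71.4% with a median of 13.0%. The interval lay wholly above the library's share in 5 of the 41 clones, 2 of them in replicate 1 and 3 in replicate 2, and wholly below it in 2, both in replicate 2.

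**Figure D3:**
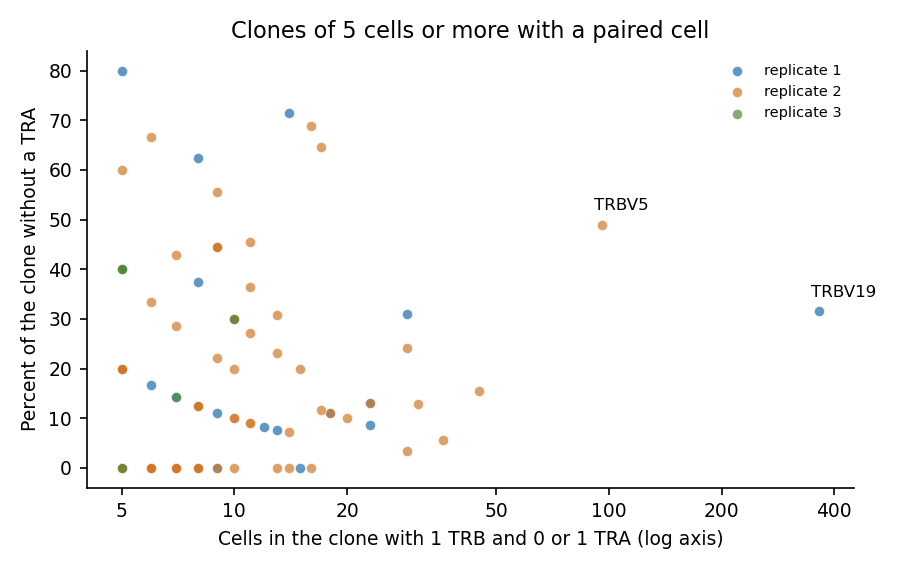
Percent of each clone without a TRA (vertical axis) against the number of its cells (horizontal log axis), for clones of 5 or more cells with at least 1 paired cell, coloured by replicate. The labelled clones are the TRBV19 clone of replicate 1 (31.5% of 365 cells) and the TRBV5 clone of replicate 2 (49.0% of 96 cells), and clones of 10 to 20 cells ran from 0% to 71.4%.

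The clone with most cells without a TRA was the TRBV19/TRBJ2-4 clone of replicate 1, in which 115 of 365 cells lacked one (31.5%, interval 26.8 to 36.5). Its V gene lies at chr6:41178375-41179048. Its paired cells carried a TRAV12D-2-TRAJ16 alpha chain in 249 of 250 cells. The pair is printed because that same alpha CDR3 reappeared on the cells counted as lacking it.
TRBV19 clone, TRB CDR3: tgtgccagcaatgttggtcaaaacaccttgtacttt
TRBV19 clone, partner TRA CDR3: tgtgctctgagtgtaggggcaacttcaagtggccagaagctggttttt

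Of its 115 cells without a TRA, 48 carried a contig with this exact alpha CDR3 that was flagged not full length. Those contigs had a median length of 483 bases, with both quartiles also at 483, and a median of 5 UMIs. The productive contigs of the paired cells had a median length of 586 bases (quartiles 576 and 598) and a median of 6 UMIs. The nonproductive contig of the paired cells was a different one, TRAV3-1-TRAJ17, present in 76 of 250 paired cells (30.4%) and 14 of 115 cells without a TRA (12.2%). The TRB of this clone was also shallower in the cells without a TRA, with a median of 5 UMIs against 12.

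The TRBV5/TRBJ2-1 clone of replicate 2 (V gene at chr6:41062332-41062803) lacked a TRA in 47 of 96 cells (49.0%, interval 38.6 to 59.4). Its partner was TRAV3-3-TRAJ34 in 49 of 49 paired cells. No cell without a TRA carried the partner's CDR3, but 11 of 47 carried a TRAV3-3 contig with no J segment, which 0 of 49 paired cells had. Its second rearrangement, TRAV13D-3-TRAJ33, was on 7 of 47 cells without a TRA and 12 of 49 paired cells. The median TRB depth was 8 UMIs in both kinds of cell.

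The 3 highest shares among clones of 10 or more cells, chosen for that share, were 10 of 14 cells in the TRBJ1-3 clone of replicate 1 that the files name TRBV12-2+TRBV13-2, 11 of 16 in the TRBV10/TRBJ1-3 clone and 11 of 17 in the TRBV15/TRBJ2-1 clone, both of replicate 2. Their partner alpha chains used TRAV13N-4, TRAV6-6 and TRAV3-3, with median TRA depths of 2.5, 1 and 3 UMIs in the paired cells. In that TRBJ1-3 clone, 4 of 10 cells without a TRA and 0 of 4 paired cells carried a nonproductive TRAV14D-1-TRAJ40 contig, and 4 cells with a second TRB also held this TRB CDR3. At the other end, 0 of 16 cells of the TRBV12-1/TRBJ2-7 clone and 0 of 14 of the TRBV13-1/TRBJ1-6 clone in replicate 2, and 0 of 15 of the TRBV5/TRBJ2-7 clone in replicate 1, lacked a TRA. Those counts allow shares of up to 20.6%, 23.2% and 21.8%. Their partners, TRAV8D-2, TRAV7N-4 and TRAV17, had median depths of 4, 3.5 and 4 UMIs.

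The other clones with most cells without a TRA were the TRBV13-3/TRBJ1-4 clone of replicate 1 (9 of 29 cells, partner TRAV3-3-TRAJ17) and the TRBV19/TRBJ1-4 clone of replicate 3 (3 of 10, partner TRAV13-1-TRAJ6). In the TRBV13-3 clone a nonproductive TRAV15D-1-DV6D-1-TRAJ31 contig was about as frequent in cells without a TRA (4 of 9) as in paired cells (9 of 20).

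The partner's own CDR3 was found on a nonproductive contig in 52 of 218 such cells in replicate 1 (23.9%, interval 18.4 to 30.1). Replicate 2 had 23 of 306 (7.52%, 4.82 to 11.1), and replicate 3 had 5 of 35 (14.3%, 4.81 to 30.3). The TRBV19 clone held most of those in replicate 1. Outside the largest clone of each library the shares were 3.88%, 8.88% and 15.6%. Clones with TRAV12D-2, the partner gene of the TRBV19 clone, had the partner's CDR3 in 48 of 120, 8 of 17 and 2 of 2 cells without a TRA in replicates 1, 2 and 3. In replicate 3 TRAV9-4 clones also had it in 2 of 2. These genes were picked after their counts were seen, and a difference between genes was not tested. Over all clones, 346 of the 559 cells without a TRA had no alpha-locus contig.

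In some clones no cell with 1 TRB had a productive TRA. The largest was the TRBV20/TRBJ1-2 clone of replicate 2, with 10 cells, none of which carried any alpha-locus contig, productive or not, although its TRB had a median of 5 UMIs (range 2 to 9). The TRBV13-3/TRBJ2-2 clone of replicate 3 (3 cells, TRB median 3 UMIs) had none either. The TRBV17/TRBJ2-4 clone of replicate 3 had an alpha-locus contig on 2 of 4 cells. Some of the TRDV1-TRAJ58 and TRAJ35 clones described above were also of this sort, while others, such as the TRBV26 clone of replicate 2, held a paired cell. In replicate 1 those without a TRA included the TRBV3 clone of 9 cells and the TRBV1 clone of 5, which were followed by 8 clones tied at 2 cells. In replicate 2 they included the TRBV16/TRBJ2-3 clone of 5 cells and the TRBV16/TRBJ2-4 and TRBV13-1/TRBJ2-1 clones, tied at 4. The TRB CDR3s of the TRBV3 clone and of this TRBV13-1/TRBJ2-1 clone were each also held by 1 cell with a second TRB. No cell with 2 or more TRBs lacked a TRA. Median TRB depths were 12 UMIs in the TRBV3 clone, 15 in the TRBV1 clone, 16 in the TRBV16/TRBJ2-3 clone, 13.5 in the TRBV13-1/TRBJ1-1 clone, 7.5 in the TRBV13-1/TRBJ2-1 clone and 5 in the TRBV23 clone of replicate 3. The TRB CDR3 of the TRBV20 clone is printed as the largest with no alpha sequence.
TRBV20 clone, TRB CDR3: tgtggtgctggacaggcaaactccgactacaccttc

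By partner TRAV gene, 1 of 27 genes tested (3.7%) had an adjusted p under the threshold in limma's fit over libraries of the log2 odds of lacking a TRA against the library's own odds. That gene was TRAV3-3 (chr14:53665929-53666506), at a log2 odds ratio of 1.62 ± 0.27 (SE, limma adjusted p = 0.0342). Its clones lacked a TRA in 17 of 51, 75 of 155 and 3 of 15 cells of the respective libraries, so the share lay above the library's in replicates 1 and 2 and below it in replicate 3. The call was lost without replicate 2 (0.81, limma adjusted p = 0.377) and without replicate 1 (1.77, limma adjusted p = 0.0973), each with 2 genes tested. It held without the largest clone of each library, which in replicate 2 is the TRBV5 clone (1.69, limma adjusted p = 0.0141). When each clone counted once, TRAV3-3 was above the library in 3 of 3 libraries (limma adjusted p = 0.00596, 4 genes tested). Of the 95 cells without a TRA in TRAV3-3 clones, 0 carried the partner's CDR3 and 64 had no alpha-locus contig. Another 12, all in replicate 2, carried a TRAV3-3 contig without a J segment, and 11 of these were in the TRBV5 clone.

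Among the 21 TRAV genes with at least 20 clone cells and cells in every library, the highest pooled shares were TRAV3-3 (95 of 221 cells, 43.0%), TRAV9-4 (10 of 32, 31.2%) and TRAV9D-3 (12 of 39, 30.8%). The lowest were TRAV10N (1 of 32, 3.12%), TRAV7D-3 (1 of 24, 4.17%) and TRAV4-3 (4 of 75, 5.33%). The intervals of TRAV9-4 (lower bound 16.1%) and TRAV10N (upper bound 16.2%) overlapped, and of these 6 genes TRAV3-3 alone passed the test. TRAV12D-2, the partner of the TRBV19 clone, lacked a TRA in 120 of 379, 17 of 97 and 2 of 7 cells (log2 odds ratio 0.77 ± 0.20, limma adjusted p = 0.0842).

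**Figure D4:**
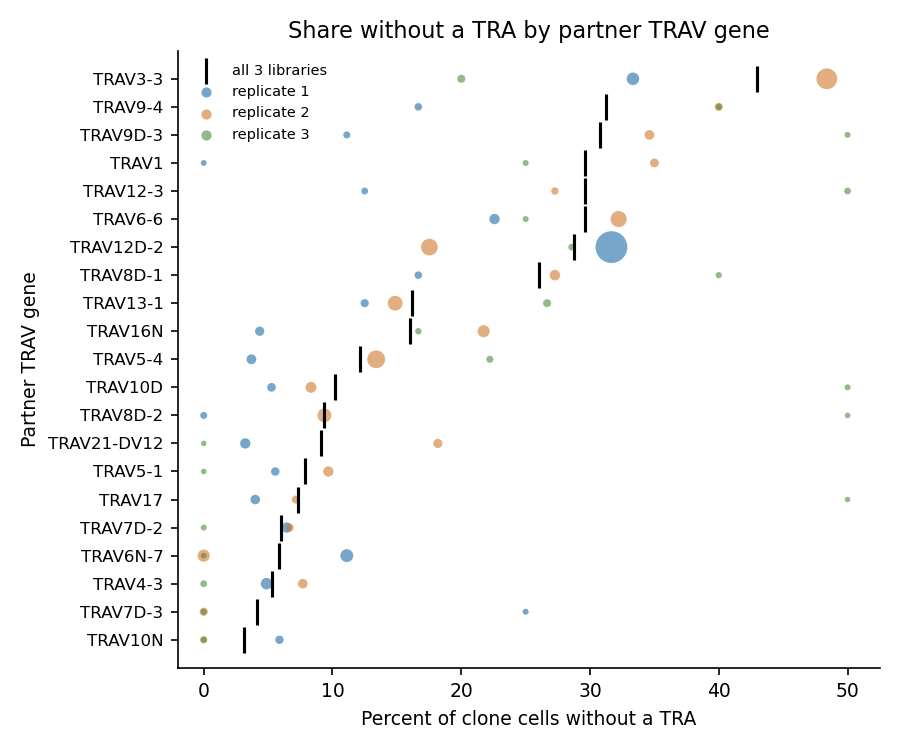
Percent of clone cells without a TRA (horizontal axis) for each of the 21 partner TRAV genes with at least 20 cells and cells in every library. Circles are libraries, with area growing with the number of cells, and black bars pool the 3 libraries. TRAV3-3 was highest at 43.0%, and its circles in the 3 libraries stood at 33.3%, 48.4% and 20.0%.

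Clones whose paired cells had a median under 3 TRA UMIs lacked a TRA in 26 of 104 cells in replicate 1, 29.8% in replicate 2 and 25.6% in replicate 3. Clones at 3 to 5.5 UMIs lacked it in 14.0%, 14.5% and 24.1%, and clones at 6 or more in 20.9%, 25.1% and 33.3%. The last class held the TRBV19 clone (median 6) and the TRBV5 clone (median 9). Without the largest clone of each library, a choice made after seeing the data, its share was 9.89%, 14.4% and 33.3% (6 of 18 cells in replicate 3), so the classes then fell with depth in replicate 1 and were level above 3 UMIs in replicate 2.

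The median TRB UMI counts of the 3 libraries were 6, 6 and 4 in cells without a TRA and 7, 6 and 4 in paired cells. The log2 ratio of medians averaged -0.07 ± 0.13 (SD, n = 3, exact sign-flip permutation p = 1). Within clones that held both kinds of cell the mean log2 ratio was lower, at -0.32 ± 0.13 (SD, n = 3, exact sign-flip permutation p = 0.25). These medians have unlike floors, because TRBs of 1 UMI were nearly all in paired cells. Over TRBs of 2 or more UMIs the log2 ratio of means was below 0 in 3 of 3 libraries, at -0.24 ± 0.15 (SD, n = 3, exact sign-flip permutation p = 0.25), and the log2 ratio of medians was -0.21 for TRBs of at least 3 UMIs and -0.39 with at least 2 UMIs for both chains. Of cells with 1 TRB and at most 1 TRA whose TRB had 1 UMI, 0 of 84, 1 of 117 and 0 of 35 lacked a TRA. Barcodes not called cells, which had a median of 1 TRB UMI, are not in these counts. The effect of cell calling on the share was not tested. The share was highest at 3 to 4 UMIs, at 33.2%, 31.9% and 48.2%, and at 17 or more UMIs it was 9.77%, 11.9% and 37.5% (the last from 6 of 16 cells, interval 15.2 to 64.6).

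**Figure D5:**
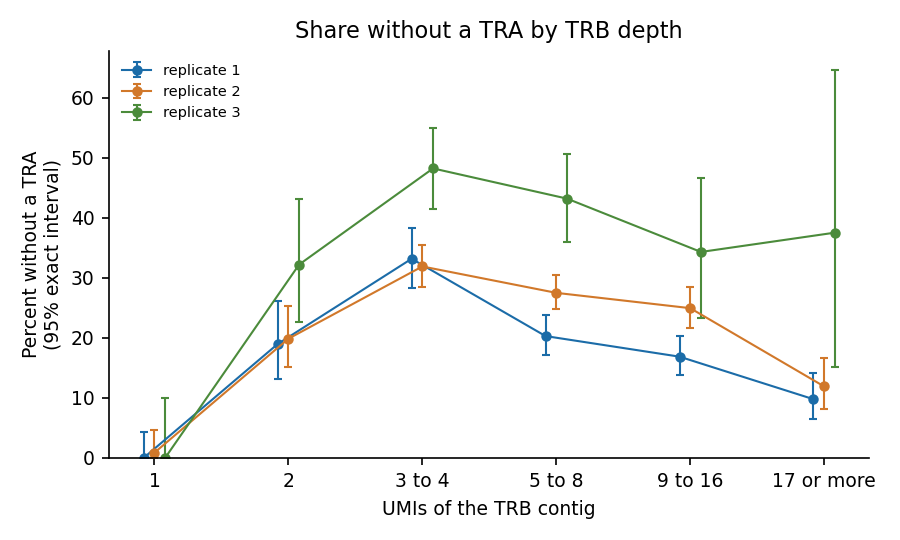
Percent of cells without a TRA (vertical axis, exact 95% intervals) by the UMI count of the TRB contig (horizontal axis), among cells with 1 TRB and 0 or 1 TRA, for each replicate. Barcodes not called cells are not included. The share was near 0% at 1 UMI, peaked at 3 to 4 UMIs in all 3 replicates (33.2%, 31.9% and 48.2%) and was lower at 17 or more UMIs in replicates 1 and 2.

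The beta chains themselves showed no difference that passed a test. By TRBV gene, 0 of 19 genes tested (0%) had an adjusted p under the threshold in limma's fit, and 1 had an unadjusted p under 0.05. That gene was TRBV15 (log2 odds ratio 0.92 ± 0.31, limma adjusted p = 0.477), used by 6 of 385, 59 of 736 and 10 of 244 cells without a TRA and by 40 of 1602, 82 of 2216 and 6 of 369 paired cells. Mean TRB CDR3 length over distinct rearrangements was 13.9, 13.9 and 14.1 amino acids in cells without a TRA and 14.0, 13.9 and 13.9 in paired cells, a mean difference of 0.03 ± 0.12 (SD, n = 3, exact sign-flip permutation p = 1).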

How the data were processed

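The authors made the deposited tables with Cell Ranger on mm10 from 10x V(D)J libraries, per the labels. The Cell Ranger version is not given in the sources used here, and the tables of replicate 1 have 18 columns against 31 in the others. UMI and read counts per contig are as deposited. Clonotype and consensus tables were not used. Contig length is in bases.

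From the filtered table, productive TRA and TRB contigs with a CDR3 were counted per barcode. Nonproductive contigs came from the table of all contigs. A clone is a TRB V gene, nucleotide CDR3 and J gene within a library. Gene coordinates are from GENCODE M21 and sequences from RefSeq's GRCm38, the C57BL/6 reference, so NOD alleles may differ. Differences per library were tested with an exact two-sided sign-flip permutation test. TRAV and TRBV genes with at least 10 cells in at least 2 libraries were tested with limma 3.58.1 (R 4.3.3) on log2 odds (pseudocount 0.5), weighted by counts, with Benjamini-Hochberg adjustment and a threshold of 0.05. This step was tested on simulated data. Python 3.11.15, pandas 2.3.3 and scipy 1.17.1 were used. Replicates are separate samples of 4 mice in all, and cells were not treated as replicates. Barcodes were taken as single cells, and no doublet caller was run.

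Named were TRAV and TRBV genes past the threshold, the 3 highest and 3 lowest TRAV genes among those with 20 or more cells and cells in every library, the 3 TRBs with most cells without a TRA and the 3 largest without any TRA in each library, and the 3 highest and 3 lowest clones of 10 or more cells. TRAJ35, TRDV1 and TRAJ58 contigs, TRBV1, TRBV15 and TRAV12D-2 were named after their values were seen. The members and lists were chosen with earlier results of these data known.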

Additional observations from a re-analysis of the deposited data

How the results depend on the processing

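Samples could not be paired across conditions because all 3 libraries share a single condition, so replicate numbers link no groups of samples. Both kinds of cell were compared within each library throughout. The share of cells without a TRA rose from 23.8% to 33.8% when TRA and TRB contigs needed at least 2 UMIs, and the share within clones from 21.7% to 30.4%. Taking 1 required paired cell out of each clone gave 29.7% within clones. Leaving out each library in turn gave 18.5% to 27.7% for all cells, 28.0% to 49.1% for sharing of the TRB with paired cells, 19.6% to 22.8% within clones, 7.67 to 11.4 percentage points for nonproductive TRA contigs, -0.11 to 0 for the log2 ratio of median TRB UMIs (-0.07 as reported, -0.39 to -0.07 under the other alternatives) and -0.038 to 0.068 amino acids for TRB CDR3 length. A further setting left out cells without a TRA that carried a TRAJ35, TRDV-TRAJ or other not full-length TRA contig with a CDR3. This choice, made after seeing the data, turned the difference in nonproductive TRA contigs to -2.16 percentage points. Its construction removes such contigs from 1 class.

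The number of TRAV genes called was 1 of 27 tested as reported, and 0 to 1 with each library left out, where 2 genes were tested without replicate 1 and 2 without replicate 2. It was 0 of 56 with no filter on low counts and 2 of 4 with each clone counted once. It was also 2 with clones of at least 3 cells and without the largest clones. Leaving the V gene out of the clone definition or renaming TRBV12-2+TRBV13-2 gave 2 as well. So did leaving out cells without a TRA that carried a TRAJ35, TRDV-TRAJ or other not full-length TRA contig with a CDR3. The number was 3 for TRAV families, with paired cells of 1 or more TRAs, with TRBs of at least 3 UMIs and at pseudocount 1. It was 6 with 2 UMIs for both chains. TRAV3-3 kept its direction under all 16 alternatives (0.81 to 1.83) and lost the call under 3, with limma adjusted p from 5.81e-11 to 0.377. The number of TRBV genes called was 0, and 1 (TRBV15) without the largest clones, without those cells, and without replicate 1, a range of 0 to 1 with libraries left out. The table of all contigs held the same productive chains as the filtered table, and no contig lacked a productive flag, so those alternatives changed no value. Shallow recovery, at a median of 3 to 5 TRA UMIs in paired cells, limits every statement that an alpha chain is missing.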

Other observations

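Barcodes that were not called cells also held single beta chains. Of barcodes outside cells with a productive chain, those with 1 TRB and no TRA numbered 5467 of 10134, 571 of 1378 and 475 of 773 in replicates 1, 2 and 3, with a median of 1 TRB UMI in each library. The TRDV1-TRAJ58 contig occurred on 30, 9 and 18 barcodes outside cells, against 25, 23 and 18 cells. In the TRBV5 clone of 31 cells in replicate 2, 3 of 4 cells without a TRA and 0 of 27 paired cells carried a nonproductive TRAV6-6-TRAJ42 contig. In the TRBV13-1 clone of 8 cells in replicate 1, 3 of 5 cells without a TRA and 0 of 3 paired cells carried a TRAV6D-3-TRAJ35 contig, and in the TRBV2 clone of 29 cells in replicate 2 the partner's CDR3 was on a nonproductive contig in 4 of 7 cells without a TRA and 0 of 22 paired cells. These clones were picked after their values were seen, and the causes were not tested.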
